A study of Mus musculus with 6 samples.

Results

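Amino acid transporter families were examined in resting CD8+ T cells (CD8-TC) of mice lacking the transcription factor Runx3. Members were selected on the gene symbol, as genes of the solute carrier families Slc1a, Slc3a, Slc6a, Slc7a, Slc36a, Slc38a and Slc43a that had a probe set paired with a single gene. This gave 64 genes, read by 66 probe sets, of 19938 genes on the array with such a probe set. The largest family was Slc6a with 21 genes, followed by Slc7a with 16, Slc38a with 11, Slc1a with 7, Slc36a with 4, Slc43a with 3 and Slc3a with 2. Among the 64 were 2 genes named for lying opposite a transporter gene, Slc6a19os and Slc7a6os, which share the symbol but are not transporters. Measured signal entered the choice in a pair of places. A gene with more than 1 probe set was represented by the brightest, and a gene was tested only if it reached the median of an array in at least 1 array. The families themselves were proposed with the Runx3-/- minus WT difference of Slc6a19 already known, so its values are given as a description, with no test.

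The study compared 3 Runx3-/- mice with 3 WT mice (Runx3 +/+), all males of the outbred ICR stock aged 6 weeks. The labels name no tissue-restricted deletion. Each mouse gave 1 Affymetrix Mouse Gene 1.0 ST array, which reads whole transcripts of freshly isolated splenic CD8-TC. Cells of both genotypes were picked out with anti-CD8 magnetic beads. The labels conflict on what followed, as the treatment entry gives a FACS sort against CD11c+ dendritic cells for Runx3-/- cells only, and so do the methods, while the growth entry mentions a sort for every sample. If only Runx3-/- cells were sorted, purification and genotype cannot be told apart in these arrays. Signals are log2 values, and differences are Runx3-/- minus WT, so that a difference of 1 is a doubling of the signal.

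T cells take up amino acids through carriers in the plasma membrane, and uptake rises steeply once a cell is activated. Slc38a carriers and Slc1a5 bring in glutamine and small neutral amino acids with sodium. The Slc7a light chains exchange amino acids across the membrane, and several of them work only as a pair with a heavy chain of the Slc3a family. The pair of Slc3a2 with Slc7a5, known as CD98, carries leucine and other large neutral amino acids into T cells and feeds the nutrient-sensing kinase complex mTORC1. Slc36a and some Slc38a proteins sit on lysosomes, where amino acids are also sensed. The Slc6a family holds carriers for neurotransmitters, taurine, creatine and amino acids, and its member Slc6a19 is best known as the neutral amino acid carrier of the gut and kidney brush border.

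Medians of the 6 arrays ran from 3.45 to 3.53, and values from 1.76 to 13.5. Correlations across the genes tested were at least 0.985 within a genotype and at most 0.971 between genotypes. The probe set of Runx3 read 7.06, 7.17 and 7.64 in Runx3-/- arrays and 7.09, 7.30 and 6.99 in WT arrays, so that it did not separate the genotypes and does not check the labels. Of the T cell markers, 9 were measured, Cd8a and Cd8b1 included. Of these, 0 passed the test in either direction by limma with Benjamini-Hochberg adjustment, 1 was higher at an unadjusted p under 0.05, and their median difference was 0.18. Their summed log2 level was 13.3 to 13.5 in Runx3-/- arrays and 13.2 to 13.4 in WT arrays. The share of all genes at an unadjusted p under 0.05 was not counted, so such counts here and below stand without a background. Markers of other cells differed between the genotypes and are given below. In bulk samples such as these, fewer cells of a type and less RNA per cell cannot be told apart.

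Most of the 64 genes were dim in CD8-TC of both genotypes. Signal stayed below the array median in all 6 arrays for 43 genes, while 17 genes were above it in all 6. The remaining 4 genes crossed the median between arrays. Slc6a19 was above it in 3 Runx3-/- arrays and 1 WT array, Slc7a7 and Slc7a8 in 0 Runx3-/- arrays and 3 WT arrays each, and Slc7a11 in 0 Runx3-/- arrays and 1 WT array. The filter was passed by the 21 genes above the median in an array, namely 7 of the Slc7a family, 6 of Slc38a, 2 each of Slc6a, Slc36a and Slc43a, and 1 each of Slc1a and Slc3a. Nearest to the limit on the inside was Slc7a11, at 3.51 in WT replicate 3 against an array median of 3.50, and on the outside Slc3a1, at 3.51 in WT replicate 2 against an array median of 3.52. No detection calls were used here, so that signals near 3.5 may lie close to background and differences there may be understated. Over all 64 genes the median difference was 0.00, with a range from -0.78 to 3.40, beside a median of 0.02 over all 19938 genes.

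**Figure D1:**
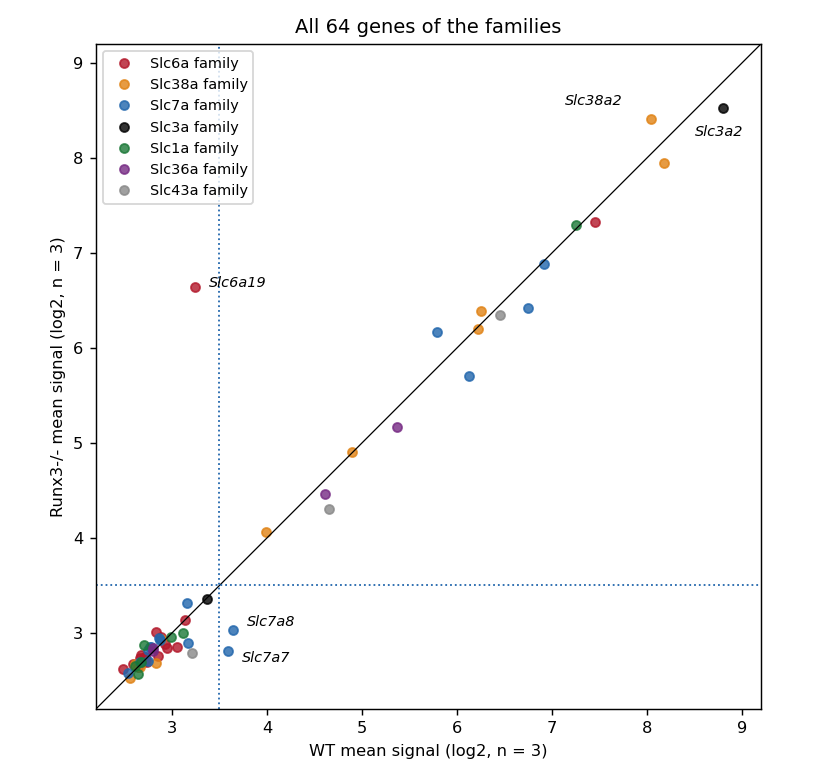
Mean log2 signal of each of the 64 genes in Runx3-/- CD8-TC (vertical axis, n = 3) against WT CD8-TC (horizontal axis, n = 3), coloured by family. The diagonal marks equal signal and the dotted lines the mean of the array medians. Slc6a19 stands far above the diagonal at 6.64 in Runx3-/- and 3.24 in WT arrays, while the 43 genes below the median in all arrays crowd near it at the lower left.

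Slc6a19, on chromosome 13, was the member with the largest difference. Its probe set 10410530 read 6.00, 6.71 and 7.21 in Runx3-/- arrays, against 3.14, 2.96 and 3.62 in WT arrays. All 3 Runx3-/- values lay above all 3 WT values, and the nearest values of the groups were more than 2 log2 units apart. The mean was 6.64 ± 0.61 in Runx3-/- and 3.24 ± 0.34 in WT arrays (SD, n = 3 each), a difference of 3.40, or 10.6-fold. Both SDs were the largest among the 64 genes. In WT arrays 2 of 3 values were below the array median, so that the fold rests on a WT level near background.

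Slc6a19 lies between a dim and a bright gene. Slc6a18, the carrier gene next to it in RefSeq gene order and a brush border carrier of the kidney, read 2.60, 2.61 and 2.64 in Runx3-/- arrays and 2.40, 2.47 and 2.59 in WT arrays. These groups did not overlap, yet their nearest values were 2.597 and 2.593. Their means lay only 0.13 apart, and all values were below the array median. On the other side lies Slc12a7, a carrier of potassium and chloride that is no member and was named after its values were seen. It read 8.41, 8.61 and 8.43 in Runx3-/- arrays and 8.03, 8.22 and 7.79 in WT arrays, without overlap. Its difference of 0.47 ± 0.13 (SE, 95% interval 0.18 to 0.76) had an adjusted p of 0.0489, just inside the threshold. The call was lost without Runx3-/- replicate 1, 2 or 3 or WT replicate 1 or 3, at adjusted p between 0.0786 and 0.148, and with the arrays shifted to 1 median, no filter on signal, a filter at the 25th percentile, array weights or no moderation, at 0.0514 to 0.175. Slc6a19os averaged 2.74 ± 0.14 in Runx3-/- and 2.70 ± 0.04 in WT arrays (SD, n = 3 each) and overlapped. Collectrin (Cltrn), which the Slc6a19 protein needs at the surface of kidney cells, read 2.84, 2.69 and 2.71 in Runx3-/- arrays and 2.76, 2.85 and 2.76 in WT arrays, below the array median throughout and with overlapping groups.

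With Slc6a19 set aside, no gene of the Slc6a family was called. The taurine carrier Slc6a6 was the only other member above the array median, at 7.36, 7.47 and 7.15 in Runx3-/- arrays and 7.35, 7.45 and 7.56 in WT arrays. The groups overlapped, and the difference was -0.12 ± 0.11 (SE, 95% interval -0.38 to 0.13, adjusted p = 0.525 by limma). The remaining 19 genes of the family had values between 2.40 and 3.24 in every array and differences between -0.20 and 0.18. Among them was the proline carrier Slc6a20a, at 3.13 ± 0.12 in Runx3-/- and 3.13 ± 0.13 in WT arrays (SD, n = 3 each). The lowest difference, -0.20, belonged to the glycine carrier Slc6a9, which read 2.89, 2.82 and 2.83 in Runx3-/- arrays and 3.01, 2.99 and 3.16 in WT arrays, without overlap.

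Upstream sequence is shown for Slc6a19 and for 2 of the genes that passed the test, Slc38a2 and Slc7a8, since Runx proteins bind DNA at short sites such as TGTGGT and TGCGGT. The 250 bases before the annotated start were taken from RefSeq (GRCm38.p6) in the direction of transcription and searched on both strands for TGTGGT, for its variant TGTGGC, then for TGCGGT and lastly for TGCGGC, which can share an end base with each other. Capitals mark a match, read as GCCGCA where TGCGGC lies on the opposite strand.
Slc6a19, chr13:73692637-73692886, minus strand: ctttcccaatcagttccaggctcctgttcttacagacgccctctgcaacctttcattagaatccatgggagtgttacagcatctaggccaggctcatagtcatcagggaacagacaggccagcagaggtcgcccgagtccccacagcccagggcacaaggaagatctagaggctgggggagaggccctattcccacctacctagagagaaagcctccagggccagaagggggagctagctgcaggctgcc
Slc38a2, chr15:96699729-96699978, minus strand: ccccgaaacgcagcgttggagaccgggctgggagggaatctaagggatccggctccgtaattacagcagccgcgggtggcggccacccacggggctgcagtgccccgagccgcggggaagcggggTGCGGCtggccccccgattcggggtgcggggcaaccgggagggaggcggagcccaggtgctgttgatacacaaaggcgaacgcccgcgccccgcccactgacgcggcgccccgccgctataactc
Slc7a8, chr14:54781887-54782136, minus strand: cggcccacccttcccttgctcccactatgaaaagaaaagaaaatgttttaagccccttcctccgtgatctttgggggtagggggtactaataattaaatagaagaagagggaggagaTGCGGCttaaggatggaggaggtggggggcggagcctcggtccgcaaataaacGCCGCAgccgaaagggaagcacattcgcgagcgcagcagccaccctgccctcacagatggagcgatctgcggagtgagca
The Slc6a19 window held 0 of these hexamers. The Slc38a2 window held 1, a TGCGGC that begins 125 bases before the start. The Slc7a8 window held 2, a TGCGGC on each strand, beginning 133 and 80 bases before the start. For Slc7a7, 5 windows were listed and 0 of them held a hexamer. At least 1 of the hexamers stood in 38% of all 32851 windows of this length and in 44.1% of the 68 windows of the 47 members that were listed. TGCGGC alone stood in 9.47% of all windows. A match describes the letters and is no evidence of binding, and its absence says only that these letters are not in the window.

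Among the Slc38a family, which moves glutamine and small neutral amino acids, Slc38a2 rose and the other 5 genes tested did not pass. Slc38a2, a sodium-coupled carrier known to be induced when amino acids are scarce, read 8.34, 8.52 and 8.36 in Runx3-/- arrays and 7.95, 8.09 and 8.07 in WT arrays. The groups did not overlap. The difference was 0.37 ± 0.10 (SE, 95% interval 0.15 to 0.59), or 1.29-fold, and passed the test with an adjusted p of 0.0423 in limma. The call was lost when any 1 of the 6 arrays was left out, with differences between 0.31 and 0.41 and adjusted p between 0.0661 and 0.141. It therefore stands close to the threshold.

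Slc38a1, a carrier of the same type that lies beside Slc38a2 on chromosome 15, read 8.08, 7.84 and 7.93 in Runx3-/- arrays and 8.18, 8.32 and 8.04 in WT arrays. The highest Runx3-/- value lay above the lowest WT value, and the difference of -0.23 ± 0.11 (SE, 95% interval -0.48 to 0.02) had an adjusted p of 0.220. A dimmer probe set of Slc38a1 read 6.85, 6.98 and 6.88 in Runx3-/- arrays and 7.58, 7.20 and 7.22 in WT arrays, a difference of -0.43 without overlap. The probe sets of this gene thus had the same sign and disagreed on overlap. Slc38a4, on the other side of Slc38a2, was below the median in every array.

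The other genes tested in the family, lysosomal carriers among them, did not pass. Slc38a9, the lysosomal carrier through which arginine signals to mTORC1, read 6.28, 6.55 and 6.32 in Runx3-/- arrays and 6.06, 6.50 and 6.18 in WT arrays, with overlap and a difference of 0.14 ± 0.14 (SE, 95% interval -0.17 to 0.44). A dimmer probe set of the gene differed by 0.15, also with overlap. Slc38a7, a glutamine carrier of lysosomes, differed by 0.01 ± 0.14 (95% interval -0.30 to 0.33), Slc38a6 by 0.07 ± 0.18 (-0.34 to 0.49) and Slc38a10 by -0.03 ± 0.09 (-0.25 to 0.19). The direction of these last 3 genes turned with the normalization or with the arrays left in. The other 5 Slc38a genes, Slc38a4 included, had values between 2.45 and 2.99 and differences between -0.14 and 0.07.

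Of the CD98 genes, the heavy chain Slc3a2 read 8.59, 8.49 and 8.50 in Runx3-/- arrays, against 8.78, 8.82 and 8.80 in WT arrays. The groups were apart and each was tight, with an SD of 0.06 in Runx3-/- and 0.02 in WT arrays (n = 3 each). The difference was -0.27 ± 0.09 (SE, 95% interval -0.47 to -0.08), and its adjusted p of 0.0761 missed the threshold. It passed at 0.0456 when every gene was tested without the filter on signal, and at 0.0415 with a prior variance that follows intensity. Under every other alternative it was not called, at adjusted p up to 0.188 by limma. Slc3a1, the heavy chain of the kidney cystine carrier, was below the median in every array, at 3.36 ± 0.10 in Runx3-/- and 3.37 ± 0.13 in WT arrays (SD, n = 3 each).

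The light chain Slc7a5, the leucine carrier of CD98, read 6.60, 6.37 and 6.27 in Runx3-/- arrays, against 6.71, 6.80 and 6.74 in WT arrays. The groups did not overlap. The difference of -0.33 ± 0.11 (SE, 95% interval -0.58 to -0.09) had an adjusted p of 0.0856. Slc7a1, a carrier of arginine and lysine that works without a heavy chain, read 5.94, 5.62 and 5.56 in Runx3-/- arrays, against 6.02, 6.22 and 6.11 in WT arrays, again without overlap. Its difference of -0.41 ± 0.12 (SE, 95% interval -0.69 to -0.13) had an adjusted p of 0.0647. In both genes Runx3-/- replicate 1 was the highest of its group, and both were called lower without it, with an adjusted p of 0.0458 for Slc7a5 and 0.0283 for Slc7a1. Under every other alternative neither was called, at adjusted p up to 0.207 for Slc7a5 and 0.187 for Slc7a1 by limma.

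Slc7a6, a further partner of Slc3a2 that exchanges arginine for neutral amino acids, read 6.97, 6.90 and 6.77 in Runx3-/- arrays and 6.85, 6.97 and 6.92 in WT arrays. The groups overlapped, with a difference of -0.03 ± 0.09 (SE, 95% interval -0.25 to 0.18). The gene opposite it, Slc7a6os, read 6.15, 5.99 and 6.35 in Runx3-/- arrays and 5.61, 5.90 and 5.84 in WT arrays. Those groups did not overlap, and the difference of 0.38 ± 0.13 (SE, 95% interval 0.09 to 0.67) had an adjusted p of 0.0914.

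**Figure D2:**
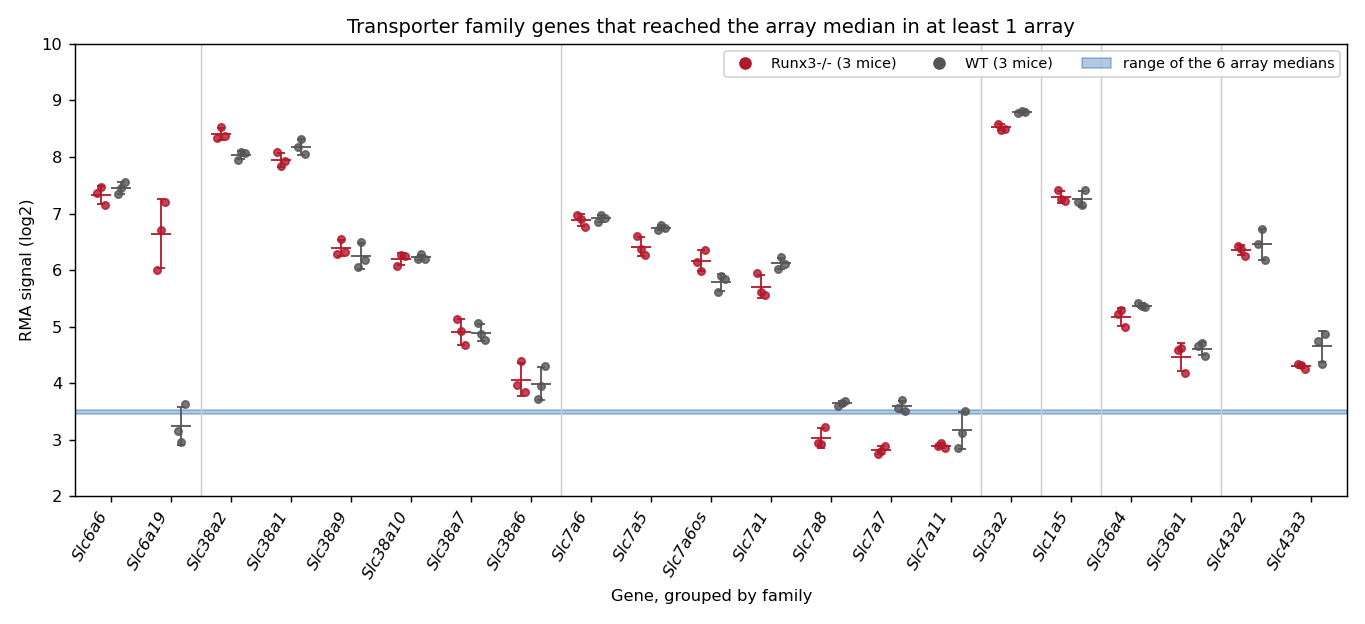
Log2 signal of the 21 genes that passed the filter, 1 point per array with the mean and SD of each genotype (Runx3-/- left, WT right, n = 3 each), grouped by family and ordered by mean signal. The blue band spans the 6 array medians. Slc6a19 reads 6.00 to 7.21 in Runx3-/- and 2.96 to 3.62 in WT arrays, and Slc7a7 and Slc7a8 lie below the band in Runx3-/- and on its upper edge or just above in WT arrays.

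Slc7a7 and Slc7a8, light chains of Slc3a2 best known from absorbing epithelia, were the members that fell. Slc7a7, which exchanges cationic for neutral amino acids, read 2.75, 2.80 and 2.88 in Runx3-/- arrays, against 3.55, 3.70 and 3.51 in WT arrays. Slc7a8, which exchanges neutral amino acids, read 2.93, 2.91 and 3.23 in Runx3-/- arrays, against 3.60, 3.64 and 3.68 in WT arrays. Neither gene's groups overlapped, and the WT values lay just above the array medians. Slc7a7 differed by -0.78 ± 0.09 (SE, 95% interval -0.99 to -0.56), or 1.72-fold, with an adjusted p of 0.00178. For Slc7a8 the difference was -0.62 ± 0.11 (SE, 95% interval -0.86 to -0.37), or 1.53-fold, with an adjusted p of 0.0101. Both entered the test only through WT arrays. With every gene tested and no filter on signal, both were called lower as well, with adjusted p of 0.00197 for Slc7a7 and 0.0136 for Slc7a8. Both were called lower whichever array was left out.

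Markers of other cell types also differed between the genotypes. Over all 9924 genes tested, 5.63% were called higher and 6.00% lower. All 12 macrophage markers measured were lower in Runx3-/- arrays, with a median difference of -2.72 and a summed log2 level of 8.18 to 9.03 in Runx3-/- arrays against 11.4 in every WT array. Their levels in Runx3-/- arrays were low but not absent, as 11 of the 12 reached the array median in at least 1 of them, and Mertk did not. All 9 B cell markers were lower, by a median of -2.29, with summed levels of 7.68 to 8.07 in Runx3-/- and 10.1 to 10.7 in WT arrays. Of 9 erythroid markers 6 were lower, with summed levels of 7.95 to 8.06 in Runx3-/- and 8.89 to 9.46 in WT arrays. Of 6 natural killer cell markers 3 were lower, with summed levels of 8.96 to 9.74 in Runx3-/- and 10.8 to 10.9 in WT arrays. Of 5 neutrophil markers 2 were lower, at 5.23 to 5.54 in Runx3-/- and 5.76 to 6.59 in WT arrays. Of 9 dendritic cell markers 8 were tested and 1 was called lower, while 5 were lower at an unadjusted p under 0.05 by limma. Their median difference was -0.83. Summed levels of the dendritic cell markers were 11.3 to 12.1 in Runx3-/- and 12.03 to 12.89 in WT arrays, and these ranges overlapped. In the other direction, all 4 markers of regulatory T cells were higher, with summed levels of 7.46 to 8.001 in Runx3-/- and 5.74 to 6.01 in WT arrays. Between 2 genotypes, any gene that differs shares its direction with some of these lists, so a shared direction does not tie a member to a cell type. The part of any of these cells in the differences of the members, or of the pathway genes below, was not tested.

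**Figure D3:**
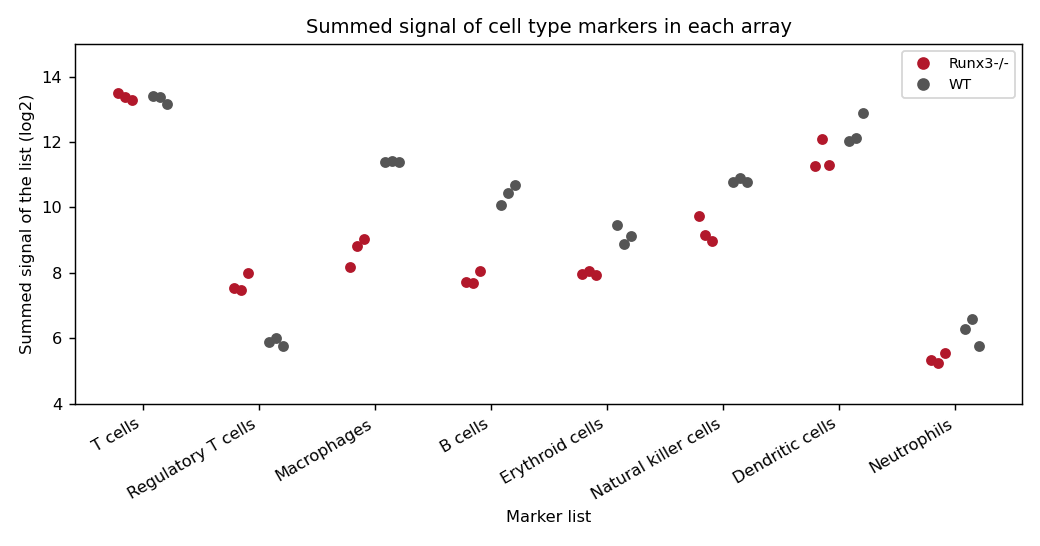
Summed log2 signal of each marker list, 1 point per array, Runx3-/- left and WT right. T cell markers overlap at 13.3 to 13.5 in Runx3-/- and 13.2 to 13.4 in WT arrays, macrophage markers lie at 8.18 to 9.03 in Runx3-/- and 11.4 in WT arrays, and regulatory T cell markers at 7.46 to 8.001 in Runx3-/- and 5.74 to 6.01 in WT arrays.

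The cystine and glutamate exchanger Slc7a11, also a partner of Slc3a2, read 2.89, 2.94 and 2.84 in Runx3-/- arrays and 2.86, 3.12 and 3.51 in WT arrays. The groups overlapped, and only WT replicate 3 reached its array median. The difference of -0.27 ± 0.16 (SE, 95% interval -0.63 to 0.08) had an adjusted p of 0.298. The other 9 genes of the Slc7a family stayed below the median in every array, with values between 2.45 and 3.46 and differences between -0.04 and 0.15. The highest of these differences, 0.15, was that of Slc7a12, at 3.46, 3.20 and 3.26 in Runx3-/- arrays and 3.11, 3.17 and 3.20 in WT arrays. Its groups were apart by less than 0.01.

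Slc1a5, the glutamine carrier that activated T cells rely on, was the only Slc1a gene above the median. It read 7.42, 7.25 and 7.22 in Runx3-/- arrays and 7.20, 7.15 and 7.42 in WT arrays. The groups overlapped, with a difference of 0.04 ± 0.11 (SE, 95% interval -0.21 to 0.29). The other 6 Slc1a genes, mostly glutamate carriers of nerve and glial cells, had values between 2.52 and 3.15 and differences between -0.12 and 0.17.

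In the Slc36a family the lysosomal proton-coupled carrier Slc36a1 read 4.58, 4.61 and 4.18 in Runx3-/- arrays and 4.65, 4.70 and 4.48 in WT arrays, with overlap and a difference of -0.15 ± 0.14 (SE, 95% interval -0.46 to 0.15). Slc36a4, a carrier of proline and tryptophan, read 5.22, 5.30 and 4.99 in Runx3-/- arrays and 5.41, 5.36 and 5.34 in WT arrays. These groups did not overlap, but the difference of -0.20 ± 0.10 (SE, 95% interval -0.44 to 0.04) had an adjusted p of 0.253. Slc36a2 and Slc36a3 were below the median throughout, between 2.71 and 2.86.

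In the Slc43a family, Slc43a2, a carrier of large neutral amino acids, read 6.43, 6.37 and 6.25 in Runx3-/- arrays and 6.46, 6.73 and 6.18 in WT arrays, with overlap and a difference of -0.11 ± 0.14 (SE, 95% interval -0.43 to 0.22). Slc43a3, which carries purine nucleobases rather than amino acids, read 4.34, 4.31 and 4.26 in Runx3-/- arrays and 4.75, 4.33 and 4.86 in WT arrays. WT replicate 2 lay among the Runx3-/- values. The difference of -0.34 ± 0.14 (SE, 95% interval -0.66 to -0.03) had an adjusted p of 0.150, and without WT replicate 2 it was -0.50 with an adjusted p of 0.0324. Under every other alternative Slc43a3 was not called, at adjusted p up to 0.341 by limma. Slc43a1, also a carrier of large neutral amino acids, had the largest difference among the genes below the median, at 2.84, 2.68 and 2.84 in Runx3-/- arrays and 3.37, 2.94 and 3.30 in WT arrays. Its groups were apart by a mean of -0.42, and in the test of every gene without the filter its adjusted p was 0.0987.

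With Slc6a19 set aside, since its difference was known when the families were chosen, 20 genes were tested. Of these, 1 was called higher in Runx3-/- CD8-TC (Slc38a2), 2 were called lower (Slc7a7 and Slc7a8) and 17 were not called (limma, Benjamini-Hochberg adjusted over 9924 genes, threshold 0.05). Over all 9924 genes tested, 5.63% were called higher and 6.00% lower. Without the filter on signal, 1 of the other 63 genes was called higher and 3 lower, Slc3a2 being the addition, beside 2.56% higher and 2.70% lower over 19938 genes. The 3 values of each genotype did not overlap for 6 of these 63 genes in the higher direction and for 8 in the lower direction. Over all 19938 genes, groups did not overlap for 13.4% in the higher and 10.3% in the lower direction. The members' counts are small, and no test of the families as a set was made.

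**Figure D4:**
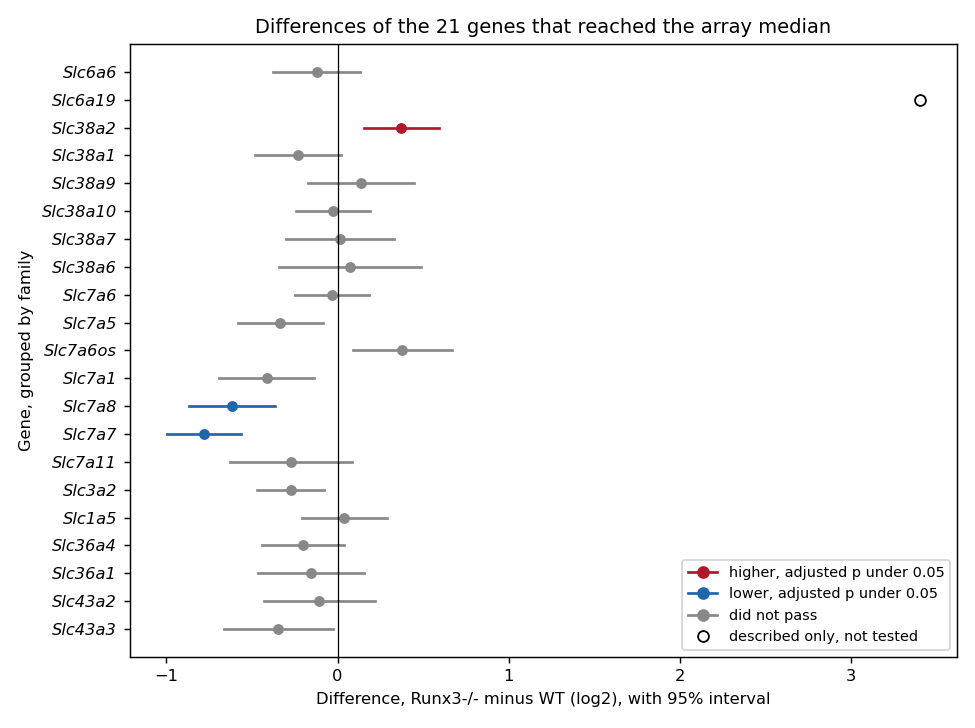
Difference in log2 signal, Runx3-/- minus WT, of the 21 genes that passed the filter, with the 95% interval from limma for the 20 tested. Red marks the gene called higher, blue the 2 called lower and grey the 17 not called, and the open circle is Slc6a19, given as a description. Apart from Slc6a19 at 3.40, every difference lies between -0.78 and 0.38.

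Genes of related pathways were counted in the same fit, in which 5.63% of all 9924 genes tested were called higher and 6.00% lower. These lists were chosen with earlier results of these data known. Their counts at an unadjusted p have no share over all genes beside them, and nothing is read from them. Of the list of amino acid sensing by mTORC1, 32 genes were measured and tested, 1 was called higher, 0 lower, and the median difference was 0.00. At an unadjusted p under 0.05 by limma, 3 were higher and 1 lower. The gene called was Castor1, a cytosolic arginine sensor that restrains mTORC1 when arginine is low, at 5.61, 4.85 and 4.96 in Runx3-/- arrays and 3.77, 3.77 and 3.81 in WT arrays. Its groups lay more than 1 log2 unit apart, the difference was 1.36 ± 0.18 (SE, 95% interval 0.94 to 1.77) and the adjusted p was 0.00285 by limma. Without moderation of variances the call was lost, at an adjusted p of 0.0889 in the same linear fit. Castor1 was singled out after its values were seen. The other 31 genes of that list had differences between -0.36 (Fnip2) and 0.32 (Nprl3). Among them, Mtor itself read 5.52, 5.65 and 5.52 in Runx3-/- arrays and 5.52, 5.79 and 5.55 in WT arrays and overlapped.

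Of the response to amino acid shortage driven by the transcription factor Atf4, 18 genes were measured and 13 tested, of which 1 was called higher, 1 lower, and the median difference of the measured genes was 0.01. At an unadjusted p under 0.05 by limma, 2 were higher and 2 lower. Ddit3, a stress-induced transcription factor, read 4.27, 4.50 and 4.53 in Runx3-/- arrays and 4.09, 3.96 and 3.86 in WT arrays, a difference of 0.46 ± 0.11 (SE) without overlap and with an adjusted p of 0.0331. With the replicate number as a block the adjusted p was 0.0694, after quantile normalization it was 0.0535, and it was 0.0538 to 0.104 without Runx3-/- replicate 2 or 3 or any 1 of the WT arrays. Shmt2, which makes glycine from serine in mitochondria, read 6.72, 6.67 and 6.49 in Runx3-/- arrays and 7.27, 6.99 and 7.004 in WT arrays, a difference of -0.46 ± 0.12 (SE) with an adjusted p of 0.0376. That call was lost without any 1 of the arrays other than WT replicate 3, with adjusted p between 0.0563 and 0.118. Asparagine synthetase, Asns, read 3.40, 3.07 and 3.53 in Runx3-/- arrays and 3.87, 3.58 and 3.74 in WT arrays, without overlap and with an adjusted p of 0.103. In the other direction, Mthfd2 differed by 0.35, also without overlap, with an adjusted p of 0.0991. Atf4 read 5.69, 5.71 and 5.66 in Runx3-/- arrays and 5.76, 5.48 and 5.84 in WT arrays and overlapped.

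Amino acid carriers of other families numbered 19, of which 12 were tested, 0 were called higher and 1 lower, with a median difference of 0.06. At an unadjusted p under 0.05 by limma, 1 was higher and 2 lower. The gene called was Slc15a3, a lysosomal carrier of histidine and small peptides, at 3.45, 3.19 and 3.32 in Runx3-/- arrays and 4.27, 3.79 and 3.91 in WT arrays. Its difference was -0.67 ± 0.14 (SE) without overlap, with an adjusted p of 0.0193. It entered the test only through WT arrays, and without the filter on signal its adjusted p was 0.0326. Without Runx3-/- replicate 2 the adjusted p was 0.0724 and without Runx3-/- replicate 3 it was 0.0632. Slc25a22, a mitochondrial glutamate carrier, differed by 0.45 with an adjusted p of 0.0758, and was called higher with array weights (0.0446) and without WT replicate 3 (0.0386). Under every other alternative Slc25a22 was not called, at adjusted p up to 0.226 by limma. Of 15 enzymes of amino acid use, 8 were tested and 0 were called in either direction by limma (2 lower at an unadjusted p under 0.05), beside a median difference of -0.09. Glutamine synthetase, Glul, came closest at 7.48, 7.22 and 7.19 in Runx3-/- arrays and 7.87, 7.85 and 7.52 in WT arrays, without overlap and with an adjusted p of 0.0612. It was called lower with the mean of its probe sets (adjusted p = 0.0438), an intensity trend in the prior variance (0.0499), array weights (0.0347) or the replicate block (0.0444), and without WT replicate 3 (0.0254). Under every other alternative Glul was not called, at adjusted p up to 0.195 by limma.

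**Figure D5:**
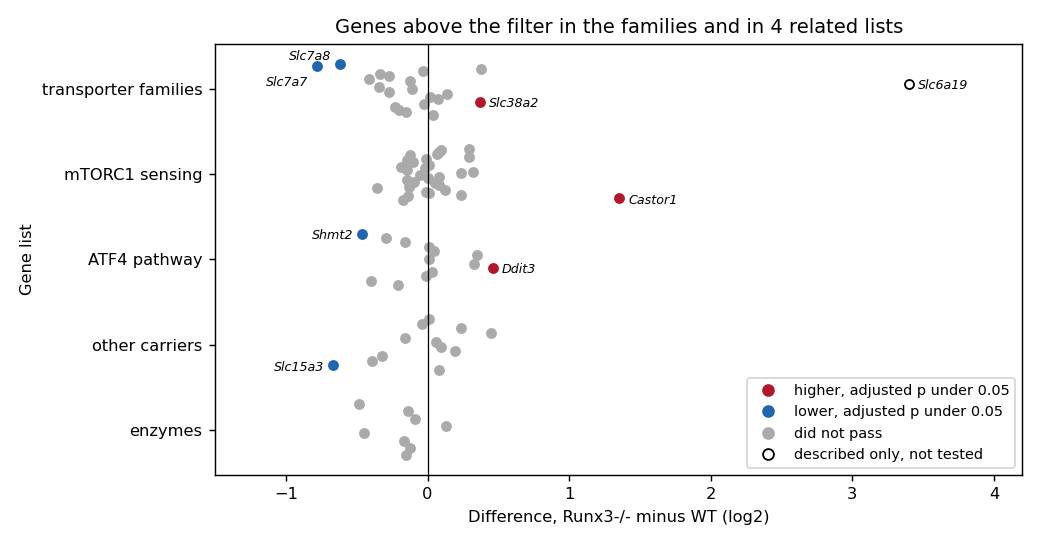
Difference in log2 signal, Runx3-/- minus WT, of each gene that passed the filter in the transporter families and in 4 related lists, 1 point per gene. Genes past the threshold are coloured and named, the others are grey, and the open circle is Slc6a19, given as a description. Castor1 at 1.36 is the only called gene among 32 of the mTORC1 list, and no gene of the enzyme list was called.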

How the data were processed

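RNA of CD8-TC from 6 mice was measured on 6 arrays. Per the methods, the authors normalized the array files in Partek Genomics Suite by RMA with a GC correction, and the values they deposited are on the log2 scale. Software versions and a genome build were not given in the sources used here. These log2 values were used as deposited, for 35399 probe sets, of which GEO's platform annotation paired 21789 with 1 gene symbol and 1621 with several, while 11989 were unnamed there. All 64 members matched a RefSeq gene table, which served for names and gene order.

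Genotypes were taken from the sample titles. Differences, Runx3-/- minus WT, were fitted with lmFit and eBayes of limma 3.58.1 in R 4.3.3, without covariates and two-sided, with Benjamini-Hochberg adjustment over the 9924 genes whose brightest probe set reached the array median in at least 1 array. Checked on simulated arrays with independent noise, the fit recovered large changes. The check set no requirement for changes as small as those of Slc38a2, Slc7a7 and Slc7a8. Arrays have no read depth, and their number limits the precision. Each array came from a separate mouse.

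Named were members past the threshold, Slc6a19 and Slc6a18, the Slc3a and Slc7a chains, the 3 brightest genes of each family, members apart by 1.5-fold or more, genes of the lists, and genes where a count of 5 or fewer is given. Members and lists were chosen with earlier results of these data known. Slc6a9, Slc43a1, Slc38a4, Slc36a2, Castor1, Fnip2, Nprl3, Mtor, Asns, Mthfd2, Atf4, Slc25a22, Slc12a7 and Glul were singled out after their values were seen. Alternatives covered normalization, filter, probe set, variance, array weights, replicate block, threshold and each array left out.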

Additional observations from a re-analysis of the deposited data

How the results depend on the processing

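Replicate numbers in the titles are not stated to link mice. Deviations of same-numbered arrays from their group means correlated at 0.177, 0.032 and -0.00014 across genes. Pairs with different numbers ran from -0.141 to 0.083. With so few arrays, these correlations cannot decide whether same-numbered mice were linked. With the replicate block, 1084 genes were called in place of 1154, and the same members were past the threshold, Slc38a2 higher and Slc7a7 and Slc7a8 lower. Counts of members here leave out Slc6a19, which is given as a description only. Calls over all genes came to 178 without moderation of variances and to 619 to 920 with an array left out. Without moderation 0 members were called higher and 1 lower, Slc7a7. Slc38a2 was not called at the methods' threshold of 1.5-fold and an unadjusted p, nor with any array left out. With an array left out, 2 to 4 members were called lower, the most without Runx3-/- replicate 1. A filter on the mean of all arrays left 0 lower, since Slc7a7 and Slc7a8 were then not tested. The difference of Slc6a19 stayed between 3.12 and 3.72 and that of Slc7a7 between -0.82 and -0.72. Differences near 0 changed sign in 6 tested genes, and in Slc36a3, Slc3a1, Slc6a20a and Slc7a15 among the dim genes named. Slc38a7 was -0.043 after quantile normalization and -0.0051 with the arrays shifted to 1 median. With an array left out it ran from -0.098 to 0.13, Slc1a5 from -0.020 to 0.12, Slc38a10 from -0.063 to 0.036, Slc38a6 from -0.090 to 0.22, Slc43a2 from -0.25 to 0.031 and Slc7a6 from -0.080 to 0.022. The cause was not tested. Signals near the array median limit what can be said of the 43 dim genes.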
